A study of Mus musculus with 176 samples.

Results

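The cells described here are single CD4 T cells with high Foxp3 mRNA, taken from mouse lymph nodes after vaccination with P6, a peptide of apolipoprotein B, the main protein of low-density lipoprotein. They were chosen by their Foxp3 reads. Of the 176 sequenced cells, 161 passed quality limits (500000 reads, 2000 genes and a mitochondrial share below 10%), and 30 of these carried at least 10 reads of Foxp3. Of the 30 cells, 11 bound the P6 tetramer (P6+) and 19 did not (P6-). The tetramer is a fluorescent complex of P6 with the MHC class II molecule I-Ab, and it marks T cells whose receptor recognises this peptide. The comparison asks how peptide-binding Foxp3-high cells differed from Foxp3-high cells of other specificities in the same kind of sort.

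Female C57BL/6J mice, an inbred wild-type strain, were 7 weeks old at the first dose of P6 (week 0, in complete Freund's adjuvant), received the second dose at week 2 (in incomplete adjuvant) and gave draining lymph nodes at week 4. P6+ and P6- cells thus shared strain, sex and vaccination as far as these are stated, and no unvaccinated mouse was compared here. Both kinds of cell were sorted as antigen-experienced by surface proteins that included CD44 and sequenced one by one by the full-length Smart-Seq2 protocol. The P6+ cells came from 1 mouse, and by the study's methods the P6- cells were sorted from the smaller remaining part of the sample volume, so cells are not replicates of a condition, each group is 1 sample, and no test between the groups was made. Differences are given as values and sizes, and the spread is the range over single cells. All 11 P6+ cells shared 1 of 8 prefixes in their cell names with only 3 of the 19 P6- cells, so that tetramer binding and whatever the prefix stands for can be told apart only as far as those 3 cells allow. Values for the 3 are given beside the main results.

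Foxp3 is the lineage-defining transcription factor of regulatory T cells (Tregs), which restrain other T cells through surface receptors such as CTLA-4, through consumption of interleukin 2 and through secreted or surface-bound factors. Resting Tregs circulate through lymph nodes by way of the homing receptor CCR7 and the exit receptor S1PR1, whose gene is driven by the factor KLF2. Effector Tregs, which have met antigen, lose that programme and gain inflammatory chemokine receptors, KLRG1, ICOS and suppressive molecules.

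Most peptide-binding Foxp3-high cells shared 1 receptor beta segment. Trbv13-2, a variable segment of the T cell receptor beta chain, had at least 10 reads in 9 of 11 P6+ Foxp3-high cells, 81.8% (95% exact binomial interval 48.2 to 97.7%), with 48 to 758 reads in those cells. The same segment had at least 10 reads in 4 of 19 P6- Foxp3-high cells, 21.1% (6.05 to 45.6%), and in 0 of the 3 that shared the prefix. The remaining P6+ cells had Trbv3 and Trbv12-2 as their leading segments. Leading segments of the P6- cells were of 8 kinds in 15 cells, and 4 cells had none with 10 reads. The first clonotype in the receptor table of the study is shown because its beta chain uses Trbv13-2. The table lists short junction sequences under CDR3, the loop that contacts the peptide. The alpha chain joins TRAV7D-6 to TRAJ17 and the beta chain TRBV13-2 to TRBJ2-4. The study's text places this pairing among P6+ cells, but its table does not link clonotypes to the cell names used here, so the clone was not assigned to single cells. Both junctions are written 5′ to 3′ in lower case:
alpha chain junction: taacagtgca
beta chain junction: ggtgacagggggcgacaaaa

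The constant segments of the beta chain also differed in use. Trbc2, the constant gene downstream of the second joining cluster, had at least 10 reads in 11 of 11 P6+ and 15 of 19 P6- Foxp3-high cells. Trbc1, which serves the first cluster, had at least 10 reads in 0 of 11 P6+ cells, where its highest count was 4 reads, and in 8 of 19 P6- cells, where it reached 3686 reads. Among Foxp3-low cells (under 10 Foxp3 reads), Trbv13-2 was held by 7 of 21 P6+ cells, 33.3% (14.6 to 57%), and by 22 of 110 P6- cells, 20% (13 to 28.7%). The intervals of this paragraph and of all that follows are exact and cover counting error only, since reads amplified without molecular identifiers are not independent molecules.

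Foxp3-high cells made up 34.4% of passing P6+ cells (11 of 32, 95% interval 18.6 to 53.2%) and 14.7% of passing P6- cells (19 cells, 9.11 to 22%). Within the shared prefix, 3 of 11 P6- cells were Foxp3-high, 27.3% (6.02 to 61%). Foxp3 lies at chrX:7573644-7595245 on the plus strand (GRCm38) and chose the members, so its levels are a description. Level in P6+ cells ran from 8.60 to 1835 read counts scaled to a total of 1000000 (cpm), with a median of 878. Level in P6- cells ran from 28.8 to 4490 cpm, with a median of 1117, and the ranges overlapped, with 3 P6- cells above every P6+ cell. Pooled over cells, Foxp3 stood at 901 cpm in P6+ and 1208 cpm in P6- cells, and at 805 cpm in the 3 P6- cells of the shared prefix. The members just inside the limit held 22 reads (P6+) and 37 reads (P6-), and the next held 293 and 325. The cells just outside held at most 4 reads (P6+) and 2 reads (P6-), so few cells lay near the limit.

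**Figure D1:**
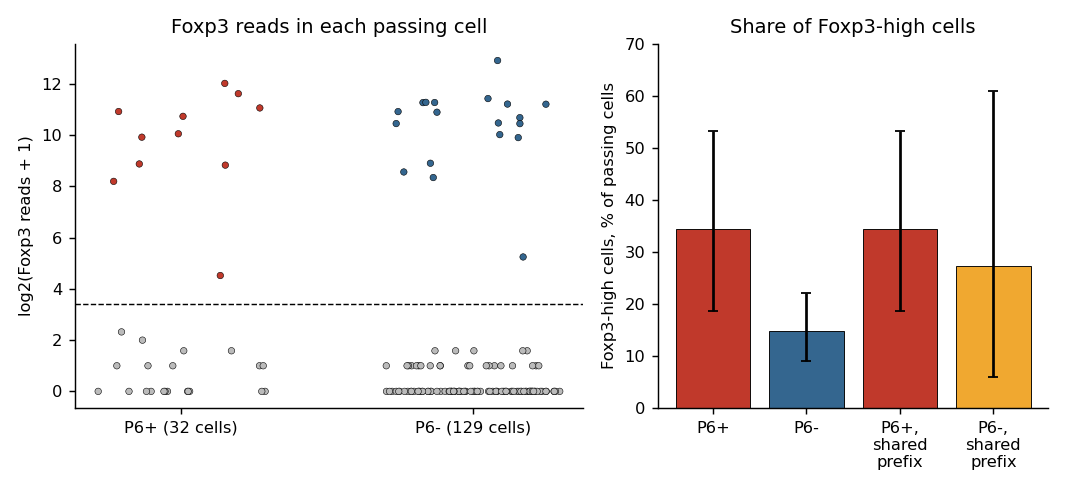
Left, log2 of Foxp3 reads plus 1 in each passing cell of both groups, with the limit of 10 reads as a dashed line and Foxp3-high cells in colour. Right, the share of Foxp3-high cells in percent of passing cells with exact 95% binomial intervals, for all cells and for cells of the shared name prefix (orange for P6-). The 30 chosen cells stand clear of the rest. The intervals treat cells as independent draws and are not a test between the groups.

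The P6+ cells were as deep as the others but held more genes. Total reads per Foxp3-high cell ran from 956280 to 3150836 in P6+ (median 1375813) and from 799876 to 2701817 in P6- (median 1443564). Median genes with a read numbered 4618 in P6+ and 3415 in P6- cells, and 4590 in the 3 P6- cells of the shared prefix. At an equal depth of 799876 reads per cell, drawn at random, these medians became 3449, 2755 and 3304. Mitochondrial reads made up 0.831 to 1.51% in P6+ cells and 0.893 to 7.51% in P6- cells. In the 3 P6- cells of the shared prefix the mitochondrial share was 2.91 to 7.51%. Mitochondrial share and prefix therefore moved with tetramer binding, while the number of genes was nearly equal within the shared prefix. The part of gene number, mitochondrial share and prefix in the differences below was not tested.

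Both groups carried T cell genes, few or no reads of myeloid and haemoglobin genes, and reads of some B cell genes. Trac, the constant gene of the alpha chain, had at least 10 reads in 11 of 11 P6+ and 16 of 19 P6- cells. Cd4 had as many in only 6 of 11 and 6 of 19 cells, and Cd44, whose protein was used for the sort, in 4 of 11 and 2 of 19. Of 9 myeloid genes, 0 had 10 reads in any of the 30 cells, with summed levels of at most 0.7 cpm, and of 4 haemoglobin genes 0 had a read. Of 6 CD8 and natural killer genes only Cd8b1 passed 10 reads, in 1 P6- cell at 1357 cpm, while Cd8a had 0 reads. Of 10 B cell genes, 4 passed 10 reads: Ighm (8 P6+ and 10 P6- cells), Cd74 (6 and 9), Cd79b (2 and 0) and Igkc (1 and 1). Summed levels of the B cell genes ran from 2.35 to 4625 cpm in P6+ (median 1958) and from 0 to 10663 cpm in P6- cells (median 1355). Ms4a1 and Cd79a, which define B cells, were at 0 reads. The part of these reads in other results was not tested.

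To compare levels, the reads of all cells in a group were pooled and scaled to the pooled total. Ratios are log2 of P6+ over P6- cpm with 1 cpm added to both. The 1781 genes compared had at least 20 cpm over the 30 cells and 10 reads in at least 25% of them, with receptor variable, diversity and joining segments and Foxp3 left out. Of these genes, 339 (19%) were at least 2-fold higher in P6+ cells and 370 (20.8%) at least 2-fold lower, and the median of all was 0.04. Ratios were above 0 for 919 of the 1781 genes. Against the 3 P6- cells of the shared prefix alone, 741 (41.6%) were at least 2-fold higher and 411 (23.1%) lower, with a median of 0.50. Many genes are at or near 0 reads in only 3 cells, so ratios against them are rough. These 3 cells held 0 to 5 effector Treg genes (median 0), and 2 of them held at least 2 of Ccr7, Klf2 and S1pr1. Their mitochondrial shares were 2.91 to 7.51%, so they are not a control for the prefix alone. Between the 21 P6+ and 110 P6- Foxp3-low cells, 309 (17.3%) of the same genes were higher and 252 (14.1%) lower. These shares are the background against which the gene lists below are read.

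**Figure D2:**
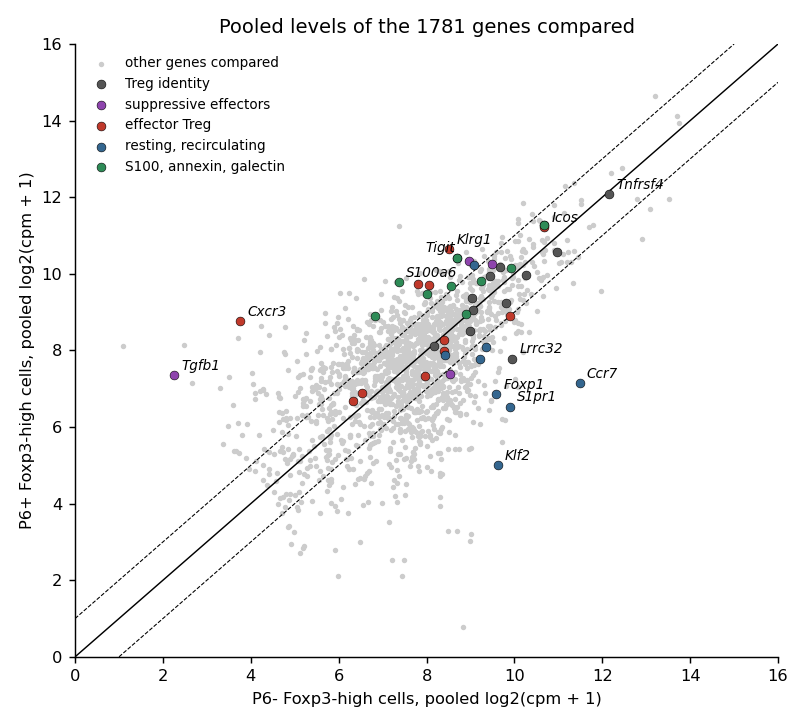
Pooled level of each gene compared, as log2 of cpm plus 1, in the 19 P6- cells (horizontal) and the 11 P6+ cells (vertical). The solid line marks equal levels and the dashed lines 2-fold; colours mark gene lists. Treg identity genes other than Lrrc32 lie within 2-fold of the line, while Ccr7, Klf2 and S1pr1 lie far below it and Cxcr3 and Tgfb1 far above.

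Treg identity genes had like pooled levels on both sides, though P6+ cells held more of them. Of 18 genes on this list, 12 were compared, 0 were at least 2-fold higher and 1 was lower, and the median log2 ratio was -0.07, but 0.97, with 6 higher and 2 lower, against the 3 P6- cells of the shared prefix. A P6+ cell held 7 to 13 of the 18 genes (median 10), a P6- cell 3 to 11 (median 8) and a P6- cell of the shared prefix 5 to 7 (median 6). Tnfrsf4 (OX40, a costimulatory receptor) ranged from 2204 to 8284 cpm in P6+ cells with a median of 4286. In P6- cells it ranged from 7.77 to 11787 cpm with a median of 4134. These were the most abundant transcripts of the list, and their log2 ratio was -0.07. Ctla4, the inhibitory receptor that takes B7 ligands from antigen-presenting cells, had at least 10 reads in 9 of 11 and 16 of 19 cells. Its pooled levels were 1007 and 1236 cpm, a log2 ratio of -0.30. Ikzf2 (Helios) stood at 598 and 890 cpm, and Il2ra (CD25, the high-affinity chain of the interleukin 2 receptor) at 274 and 288 cpm. Capg, an actin-capping protein, was the highest ratio at 0.62, with 2494 against 1623 cpm. It was found in 11 of 11 P6+ but 12 of 19 P6- cells.

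The lowest identity gene was Lrrc32, which encodes GARP, the receptor that holds latent TGF-beta on the Treg surface. It had at least 10 reads in 4 of 11 P6+ cells, with a median of 1.20 and a maximum of 2285 cpm. In P6- cells it had as many in 10 of 19, with a median of 74.5 and a maximum of 5592 cpm. The log2 ratio was -2.17, and -3.25 against the 3 P6- cells of the shared prefix, which all held it (1479 to 2513 cpm). Leaving out any 1 cell moved the ratio between -3.65 and -1.74. The 2 groups overlapped.

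The genes of suppression differed more. Of 16 genes, 5 were compared, 3 were at least 2-fold higher in P6+ cells and 1 lower, with a median of 1.36, and 5.34 against the 3 P6- cells of the shared prefix. Tgfb1, the cytokine that GARP presents, had at least 10 reads in 8 of 11 P6+ cells, with a median of 42.9 and a maximum of 806 cpm. In P6- cells it had as many in 4 of 19, with a median of 0 and a maximum of 31.4 cpm. Pooled levels were 162 and 3.76 cpm, a log2 ratio of 5.09, and 5.34 within the shared prefix. P6+ replicate 7 supplied the largest part, and without it the ratio was 3.89. The 2 groups overlapped at the low end, since 3 P6+ cells had 0 reads.

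Tigit, an inhibitory receptor that competes with CD226 for its ligand, was found in all 11 P6+ cells. Its level there ran from 154 to 2506 cpm with a median of 1022. In P6- cells it ran from 0.544 to 2821 cpm with a median of 3.55, and 9 of 19 cells had 10 reads. The log2 ratio was 1.36, and no P6- cell of the shared prefix held it. Lgals1 (galectin-1, a secreted lectin that acts on effector T cells) stood at 1365 and 410 cpm, a ratio of 1.73, and 2.59 without P6- replicate 29. Gzmb, which encodes the protease granzyme B, did not reach 2-fold (1227 and 719 cpm), and 1 P6- cell, replicate 130, decided this: without it the ratio was 2.21. Nt5e, the ecto-enzyme CD73 that makes adenosine, was lower in P6+ at 166 against 370 cpm, but leaving out any 1 of 7 cells brought the ratio under 2-fold and the medians of the cells gave 0.32 in the other direction.

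The other 11 suppressive genes were too rarely detected to be compared. Lag3, an inhibitory receptor for MHC class II, had 10 reads in 5 of 11 P6+ cells and 1 of 19 P6- cells. Il10, an anti-inflammatory cytokine, had 10 reads in 2 of 11 P6+ cells at up to 209.8 cpm and 0 reads in all P6- cells. Itgb8, the integrin chain that activates latent TGF-beta, had 10 reads in 3 of 11 and 0 of 19 cells. Penk, the precursor of enkephalin peptides, had 10 reads in 2 of 11 and 0 of 19. Areg (amphiregulin, a tissue repair factor) had 10 reads in 1 cell of each group (21.8 and 296 cpm pooled). Havcr2 (TIM-3, an inhibitory receptor) had 10 reads in 3 of 11 and 2 of 19 cells, and Entpd1 (CD39, an ecto-enzyme) in 1 of each. Pdcd1 (PD-1, an inhibitory receptor) leaned the other way, with 10 reads in 1 of 11 and 4 of 19 cells at pooled levels of 146 and 228 cpm. Ebi3, a chain of interleukin 35, had 10 reads in 2 and 3 cells (26.3 and 52.3 cpm), and Fgl2, a secreted fibrinogen-like protein, in 1 of each (29 and 53.1 cpm). Prf1 (perforin) had 10 reads in 0 cells of either group. These are rare transcripts seen in few cells, and no ratio is given for them.

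Among effector Treg genes, 15 were listed and 11 compared, of which 4 were at least 2-fold higher in P6+ cells and 0 lower, with a median of 0.35, and 6.27 against the 3 P6- cells of the shared prefix. The most divergent was Cxcr3 (chrX:101731535-101734269, minus strand), the receptor for interferon-induced chemokines that guides T cells to type 1 inflammation. In P6+ cells its level ran from 0 to 1392 cpm with a median of 216, and 7 of 11 cells had 10 reads. In P6- cells it ran from 0 to 250 cpm with a median of 0, and 1 of 19 cells had 10 reads. The highest P6+ cells lay above every P6- cell, while the lower P6+ cells lay within the P6- range. Pooled levels were 432 and 12.6 cpm, a log2 ratio of 5.0. Without P6- replicate 29, the single P6- cell with the receptor, the ratio was 8.32. In the shared prefix 0 of 3 P6- cells held it.

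Klrg1, an inhibitory receptor of terminally differentiated effector cells, followed the same order. It had at least 10 reads in 8 of 11 P6+ cells (median 1316, maximum 3389 cpm) and in 6 of 19 P6- cells (median 0.703, maximum 2165 cpm). The log2 ratio was 2.13, and 1.88 to 3.03 when any 1 cell was left out. Icos, the costimulatory receptor of effector Tregs, was found in all 11 P6+ and 13 of 19 P6- cells at 2367 and 1634 cpm, a ratio of 0.53. Batf and Id2, transcriptional regulators of effector Tregs, were past 2-fold at 1.92 and 1.65. Both calls rested on P6+ replicate 26, the cell with 22 Foxp3 reads: without it the ratios were 0.81 and 0.36, and without P6- replicate 4 they were 2.77 and 2.53. Rora, a nuclear receptor of tissue Tregs, was the lowest of the list at -0.99 (479 and 956 cpm), but 1.32 against the shared prefix and -1.75 without P6+ replicate 7. Il1rl1 (ST2, the interleukin 33 receptor) at -0.40 and Ccr8 at -0.12, both marks of tissue Tregs, were within 2-fold, though Il1rl1 was at -2.45 without P6+ replicate 26 and at 7.40 against the shared prefix.

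**Figure D3:**
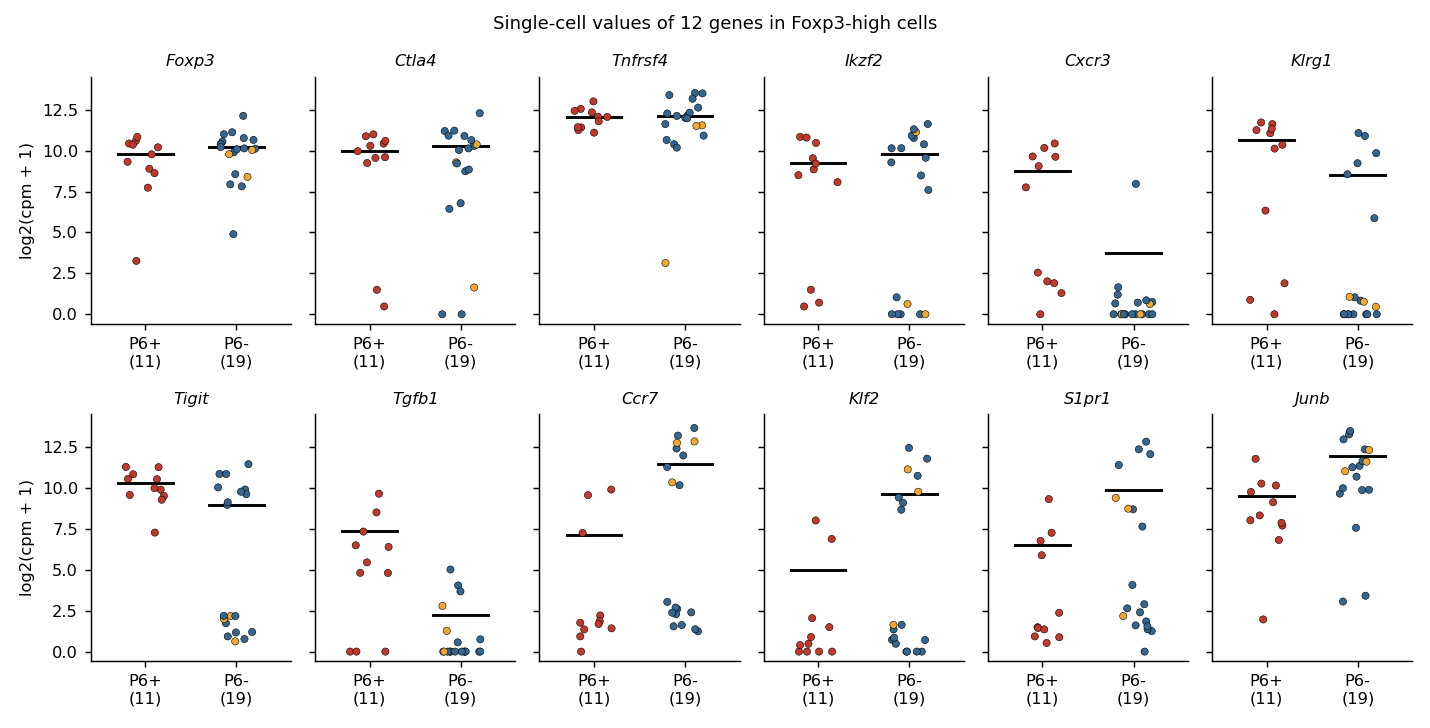
Each panel shows 1 gene as log2 of cpm plus 1 in the 11 P6+ cells (red) and 19 P6- cells (blue, or orange for the 3 of the shared prefix), with the black bar at the pooled level. Ctla4, Tnfrsf4 and Ikzf2 overlap in both groups, Cxcr3, Klrg1, Tigit and Tgfb1 are on in more P6+ cells, and Ccr7, Klf2, S1pr1 and Junb are higher in P6- cells.

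The pooled levels of resting and recirculating genes were mostly lower in P6+ cells, while the number of these genes held per cell had a median of 4 in both groups (1 to 6 in P6+ and 1 to 8 in P6- cells). Of 13 genes, 8 were compared, 6 were at least 2-fold lower in P6+ cells and 1 higher, with a median of -2.08, and -1.98 against the 3 P6- cells of the shared prefix. Ccr7 (chr11:99144196-99155077, minus strand), the receptor for the chemokines of the lymph node T zone, had 10 reads in 3 of 11 P6+ cells. Its level there ran from 0 to 960 cpm with a median of 2.40. In P6- cells 9 of 19 had 10 reads, and the level ran from 1.36 to 13063 cpm with a median of 7.22. No P6+ cell exceeded 960 cpm, while all 9 P6- cells with the gene did. The pooled levels of 140 and 2866 cpm gave a log2 ratio of -4.35.

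Klf2 (chr8:72319033-72321656, plus strand), the factor that drives the exit and homing receptors, stood at 30.9 cpm in P6+ and 785 cpm in P6- cells. It had 10 reads in 2 of 11 P6+ cells, with a highest level of 259 cpm, and in 8 of 19 P6- cells, with a highest level of 5630 cpm. Its log2 ratio of -4.62 was the lowest of the list. S1pr1 (chr3:115710433-115715072, minus strand), by which lymphocytes leave the node, stood at 91.7 and 950 cpm, with 4 of 11 and 9 of 19 cells. The ratio was -3.36. In the shared prefix the ratios were -5.35 for Ccr7, -5.34 for Klf2 and -2.24 for S1pr1, and leaving out any 1 cell kept each of these genes past 2-fold. Without the P6+ cell that weighed most (replicate 3 for Ccr7, 28 for Klf2 and 23 for S1pr1) the ratios were -5.18, -5.52 and -4.67.

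The other members of the list were less uniform. Foxp1 and Foxo1, forkhead factors of quiescent T cells, had log2 ratios of -2.73 and -1.26. Yet the median P6+ cell held more of both than the median P6- cell (140 against 4.16 cpm for Foxp1, 143.3 against 49.9 cpm for Foxo1). Satb1, a chromatin organiser of T cells, was higher in P6+ at 1.14, but lower against the shared prefix at -0.29. Il7r, the interleukin 7 receptor, lay at -0.55, but at 0.11 without P6- replicate 130 and 7.13 against the shared prefix. Of the genes too rare to be compared, Lef1 had 10 reads in 1 of 11 and 4 of 19 cells and Tcf7 in 0 of 11 and 1 of 19, both transcription factors of naive and memory-like T cells.

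P6- cells differed widely among themselves in homing genes. Of Ccr7, Klf2 and S1pr1, at least 2 had 10 reads in 7 of 19 P6- cells and in 1 of 11 P6+ cells. Those 7 P6- cells spanned 5 prefixes, held 0 to 5 effector Treg genes (median 0) and had 1648 to 7737 Foxp3 reads. The 6 P6- cells with none of these genes held 3 to 10 effector genes (median 7), and the 6 with a single one 3 to 9 (median 4.5). All P6+ cells held at least 5 effector genes, up to 11, with a median of 7, against 0 to 10 with a median of 4 in P6- cells. P6- Foxp3-high cells therefore ranged from cells with homing genes and few effector genes to cells without these homing genes whose effector gene counts lay within the P6+ range. In number of effector genes the 2 groups overlapped from 5 to 10. The 7 had mitochondrial shares of 2.03 to 7.51%, above every P6+ cell (at most 1.51%), and the 6 P6- cells with none of the homing genes had 1.10 to 3.65%. Among the 7 were the 2 cells with the highest shares (7.48 and 7.51%). Without this pair the median of the resting list was -1.45.

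**Figure D4:**
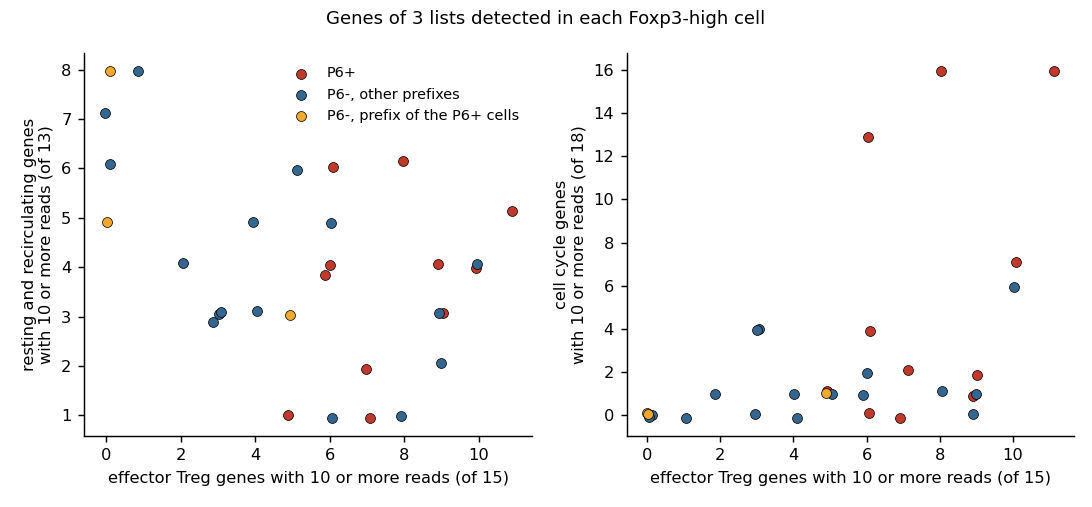
Number of effector Treg genes with 10 or more reads (horizontal, of 15) against the number of resting and recirculating genes (left, of 13) and of cell cycle genes (right, of 18), 1 point per Foxp3-high cell with a small shift against overlap. P6- cells (blue, orange for the shared prefix) fill the upper left corner, where no P6+ cell (red) lies, and 3 P6+ cells with 13 to 16 cell cycle genes lie alone at the top.

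Cell cycle genes were held by a part of the P6+ cells. At least 6 of the 18 genes had 10 reads in 4 of 11 P6+ cells, which had 7, 13, 16 and 16, and in 1 of 19 P6- cells, which had 6. All 5 cells had Trbv13-2 as their leading segment. At most 1 of the genes was detected in 4 of 11 P6+ and 15 of 19 P6- cells. Only 3 genes of the list were common enough to be compared. Pcna, the clamp of the replication fork, had 10 reads in 6 of 11 P6+ and 3 of 19 P6- cells, at 422 and 50.4 cpm, a log2 ratio of 3.04, which was 2.31 without P6+ replicate 7 and 4.05 without P6- replicate 31. The helicase subunits Mcm6 and Mcm7 were at 0.93 and 0.15, and single cells moved them from 0.26 to 1.73 and from -0.54 to 0.93. Of the rarer genes, Mki67 had 10 reads in 3 of 11 P6+ cells (highest 707 cpm) and in 0 of 19 P6- cells, where 1 read was counted in all. Top2a, the mitotic topoisomerase, had 10 reads in 4 of 11 and 1 of 19, and Rrm2, which makes deoxynucleotides, in 3 of 11 and 0 of 19. The cells with most cycle genes also held many genes of any kind (4402 to 5768 in the P6+ cells), and the part of gene number in the count was not tested.

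Genes of the calcium-binding S100 proteins, annexins and actin-linked proteins, which effector T cells hold at high levels, were mostly on the P6+ side. Of 12 genes, 9 were compared, 9 had ratios above 0, 5 were at least 2-fold higher and 0 lower, with a median of 1.14, and 2.26 against the shared prefix. Lgals3 (galectin-3), too rare to be compared, had 10 reads in 1 P6+ cell (314 cpm) and 1 P6- cell (1425 cpm). S100a6 had 10 reads in 10 of 11 P6+ cells (median 753, highest 3072 cpm) and in 8 of 19 P6- cells (median 0.740, highest 815 cpm). The log2 ratio was 2.42. S100a11 was at 2.05, Anxa2 at 1.46 and Vim (vimentin) at 1.14, which was 0.90 without 1 P6+ cell. Anxa2 had 10 reads in 7 of 11 P6+ cells but in a single P6- cell, replicate 20, without which the ratio was 8.44. Lgals1, described above, was also on this list.

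Immediate early genes respond within minutes to receptor signals and also to cell handling. Of 9 genes, 5 were compared, 0 were at least 2-fold higher and 2 lower, with a median of -0.24. Against the shared prefix 2 were higher and 3 lower, with a median of -1.30. Junb, a subunit of the AP-1 factor, ran from 2.91 to 3533 cpm in P6+ cells with a median of 320. In P6- cells it ran from 7.35 to 11481 cpm with a median of 2473. The ratio was -2.43, between -2.86 and -2.22 without any 1 cell and -2.14 within the shared prefix. Dusp1, a phosphatase that ends MAP kinase signals, had a ratio of -2.77, which was -3.44 without P6+ replicate 3 and -2.04 without P6- replicate 88. Against the shared prefix the AP-1 subunit Jund and Ier2 were higher in P6+ cells, at 3.05 and 2.53. Zfp36, which destabilises cytokine mRNAs and was too rare to be compared, had at least 10 reads in 2 of 11 P6+ and 0 of 19 P6- cells. Of 12 genes induced by receptor signals 3 were compared: Cd69, an early activation antigen that retains cells in tissue, was at -1.40, Nr4a1, a nuclear receptor, at -0.66 and Cd5, a damper of receptor signals, at -0.45. The direction for Cd69 was not stable: more P6+ cells held it (5 of 11 against 4 of 19), without P6- replicate 9 the ratio was -0.66, and against the 3 P6- cells of the shared prefix it was 6.01. Cd5 turned to 7.17 against those cells. Nr4a1 was not stable either: 6 of 11 P6+ and 5 of 19 P6- cells held it, P6- replicate 84 alone carried it in the shared prefix (-1.80), and without that cell the ratio over all P6- cells was 0.094.

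TNF receptor and NF-kappaB genes had few differences past 2-fold, with 12 of 18 compared, 0 higher, 2 lower and a median of -0.23. Against the shared prefix the order turned, with 7 of the 12 higher, 0 lower and a median of 1.63. Traf1 and Tnfaip3, both induced by NF-kappaB, were the lower genes, at -1.84 and -1.32, and Tnfaip3 rested on single cells: it fell short of 2-fold at -0.80 without P6- replicate 96 and reached -4.26 without P6+ replicate 1. The highest were Tnfrsf9 (4-1BB, a costimulatory receptor) at 0.50, and 1.11 without P6- replicate 130, and Nfkb2 (an NF-kappaB subunit) at 0.37, and -0.32 without P6+ replicate 26. Of 19 cytokine receptor genes 9 were compared. Il4ra (interleukin 4 receptor) was past 2-fold lower at -2.28 (-3.12 without P6+ replicate 28), and Ifngr1 (interferon gamma receptor) lay just short of it at -0.99. No receptor gene was 2-fold higher, and the highest, Crlf2, a chain of the TSLP receptor at 0.997, was decided by single cells: the ratio was 0.19 without P6+ replicate 21 and up to 1.68 without 1 P6- cell.

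Chemokine receptors and adhesion molecules other than those above included Cxcr6, at 706 and 223 cpm (1.66), a receptor of tissue-homing T cells. Its ratio rested on P6+ replicate 2, and without that cell it was 0.38, while without P6- replicate 4 it was 5.43. Of 22 genes on this list 12 were compared, 2 were higher and 3 lower, with a median of 0.00, but 9 were higher, 2 lower and the median 5.25 against the shared prefix. Itgb7, an integrin chain of gut-homing cells, was found in 11 of 11 and 11 of 19 cells at 0.48. Itgb2, which pairs with LFA-1's alpha chain, was at -1.06, short of 2-fold without any 1 of several cells and at 0.22 by the medians of cells.

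Lineage factors of conventional helper cells were detected in few cells, apart from those that Tregs share. Tbx21, the T helper 1 factor, had 10 reads in 1 of 11 and 0 of 19 cells. Bcl6, the follicular helper factor, had 10 reads in 0 of 11 and 1 of 19. Gata3, the T helper 2 factor that Tregs also use, was at 160 and 249 cpm (-0.63). Of the T helper 1 list 3 of 10 genes were compared with a median of 0.24, of the T helper 2 list 4 of 8 with a median of -0.52, of the T helper 17 list 1 of 9, and of the follicular list 0 of 10. Against the shared prefix the medians of the T helper 1 and T helper 2 lists were 1.02 and 0.30. Ccl5, a chemokine of effector T cells, had 10 reads in 6 of 11 P6+ cells and 1 of 19 P6- cells.

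The genes at each end of the ratio, among those held by at least 50% of the cells of the higher group and not owed mainly to 1 cell, were mostly of general function. At the upper end stood Cxcr3, Tubb5 (a beta tubulin, 3.86), Supt16 (a subunit of the histone chaperone FACT, 3.83), Csnk2a1 (casein kinase 2, 3.8), Inpp4a (a phosphoinositide phosphatase, 3.75), 1810058I24Rik (3.74), Cnppd1 (3.49), Mapkapk2 (a kinase downstream of p38, 3.29) and Pcif1 (an mRNA cap methyltransferase, 3.20). These genes were held by 6 to 10 of the 11 P6+ cells. Single P6- cells set some of these ratios: leaving out the 1 that weighed most gave 9.09 for Mapkapk2, 7.95 for Supt16 (replicate 130), 6.2 for Csnk2a1, 5.02 for Inpp4a (replicate 34), 4.68 for 1810058I24Rik and 4.59 for Pcif1 (replicate 68), while Tubb5 was at 3.23 without P6+ replicate 28.

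At the lower end, Gm47283 (-5.33) and Slc34a2 (-3.87) had the lowest ratios among genes held by at least 50% of the P6- cells. Slc34a2 (chr5:53038081-53071664, plus strand), a sodium phosphate transporter of epithelia, had at least 10 reads in 19 of 19 P6- cells (10.7 to 145 cpm) and in 2 of 11 P6+ cells (0 to 6.00 cpm), and the ranges did not overlap. It had 10 reads in 110 of 110 P6- and 2 of 21 P6+ Foxp3-low cells, and in 8 of 8 P6- Foxp3-low cells of the shared prefix. Gm47283, a gene model on chrY:90784738-90816464 in a female mouse, is uncertain, since its reads may belong to a near-identical copy elsewhere. The other 8 were Eif3g (translation initiation, -3.55), Rgs10 (a regulator of G protein signalling, -3.13), Tcp11l2 (-3.02), Tpr (a nuclear pore protein, -2.94), Lars2 (a mitochondrial tRNA synthetase, -2.81), Vps37b (endosomal sorting, -2.69), Gm5835 (-2.45) and Hacd3 (fatty acid elongation, -2.45). Without the P6+ cell that weighed most, Gm47283 was at -5.96, Eif3g at -4.18, Rgs10 at -4.59, Tcp11l2 at -4.06 and Hacd3 at -3.23. Hacd3 turned to 5.56 against the 3 P6- cells of the shared prefix.

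The same lists were set beside Foxp3-low cells, where 21 P6+ and 110 P6- cells were compared. Not all of these lacked Foxp3 reads: 9 P6+ cells held up to 4 reads and 25 P6- cells up to 2. Treg identity genes, at like pooled levels in Foxp3-high cells, were at a median of 1.19 in Foxp3-low cells, with 7 of 12 at least 2-fold higher in P6+ and 0 lower. Ikzf2 had 10 reads in 13 of 21 P6+ and 12 of 110 P6- Foxp3-low cells, a log2 ratio of 2.47, and Itgae (CD103) was at 3.53. Effector Treg genes had a median of 1.19 with 6 of 11 higher, S100 and annexin genes 1.06 with 5 of 9 higher, and Klrg1 stood at 4.13. Resting genes had a median of -0.71 with 3 of 8 lower. Ccr7 was at -1.19, S1pr1 at -0.87 and Klf2 at -0.24 in Foxp3-low cells. The differences between the Foxp3-high and Foxp3-low ratios were not tested.

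**Figure D5:**
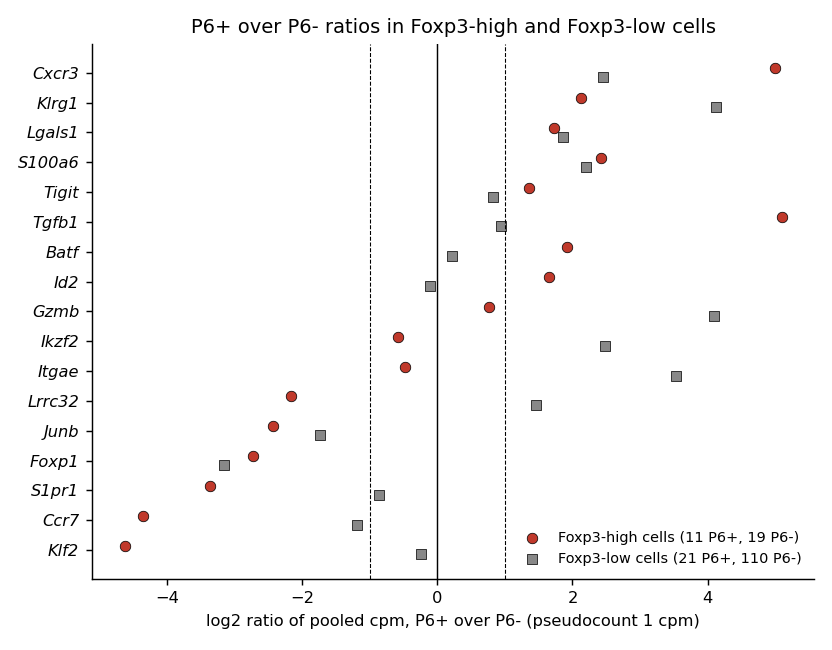
Log2 ratio of pooled cpm, P6+ over P6-, of 17 genes in Foxp3-high cells (circles, 11 and 19 cells) and Foxp3-low cells (squares, 21 and 110 cells), with dashed lines at 2-fold. Cxcr3, Klrg1, Lgals1 and S100a6 are past 2-fold in both, Ikzf2, Itgae and Lrrc32 are on opposite sides of 0, and Klf2 is far below 0 only in Foxp3-high cells.

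The P6+ side was also restricted to the 9 cells with Trbv13-2. These are 9 of the same 11 cells, set against the same P6- cells, so the ratios are a description and no check of the main ones. Among the genes named next, the widest move was in S1pr1. Log2 ratios were then 4.77 for Cxcr3, 5.26 for Tgfb1, 2.18 for Klrg1, 1.3 for Tigit, -4.12 for Ccr7, -4.39 for Klf2 and -4.58 for S1pr1. The 2 P6+ cells with other segments held Cxcr3 at 779 and Tigit at 1569 cpm, and Ccr7 at 2.89 cpm. The 4 P6- cells with Trbv13-2 held Cxcr3 at 0.846, Tigit at 801, Klf2 at 953 and Ccr7 at 931 cpm. The Klf2 and Ccr7 of these 4 came from 1 cell, P6- replicate 51, and the others held at most 2.10 cpm of Klf2 and 5.09 cpm of Ccr7.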

How the data were processed

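Single cells were sequenced by Smart-Seq2 as 150-bp paired-end reads. The authors checked reads with FastQC 0.11.7, mapped them with STAR 2.6.0a to GRCm38 with Ensembl 92 annotation, used SAMtools 0.1.19, and deposited raw read counts per gene for 176 cells, without normalization. Use of strand is not given in the sources used here, so antisense partners cannot be told apart. All 176 columns of the table were matched to samples by name, leaving 0 columns unused. The deposited metadata table was not used.

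Rows sharing a gene name were averaged (53647 rows, 53546 names). Cells needed 500000 reads, 2000 genes and under 10% of reads on 37 mitochondrial genes. The study also set a limit on the total mapping rate, which was not applied here. It kept fewer P6- cells than the 129 that passed here, while all 32 P6+ cells passed in both. A gene with under 10 reads in a cell was treated as not detected. Counts were pooled per group and scaled to the pooled total. Ratios used a pseudocount of 1 cpm, and intervals of shares of cells are exact at 95%. No test was made and no doublet caller was run, since each well received 1 sorted cell. No pair of Foxp3-high cells had identical columns. The 10 genes at each end were those with the highest and lowest ratio that had 10 reads in at least 50% of the higher group's cells and under 50% of its reads in 1 cell. A few genes of these ends and lists are not reported here. The 4 Treg lists were given by their ends, most abundant genes and a few examples, and the other lists by their highest and lowest genes. Rarer genes and further members of these lists, the split by Trbv13-2 and Slc34a2 in other cells were chosen after their values were seen. The members and lists were chosen with earlier results of these data known. The code for pooled ratios was tested on simulated data. Gene positions are from GENCODE M21, and receptor junctions from the study's receptor table. In R 4.3.3, edgeR 4.0.16 (TMM) and DESeq2 1.42.0 (size factors) served only to rescale the pooled counts, without a test. Python 3.11.15, pandas 2.3.3, NumPy 2.4.6, SciPy 1.17.1 and matplotlib 3.10.9 were used for the rest.

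Alternatives changed the Foxp3 limit, the quality limits, the weighting of cells, the scaling, the pseudocount, the gene filter, the depth, the P6- cells used and each single cell. Leaving out cells above 5% mitochondrial reads and P6+ cells without Trbv13-2 were added after the data were seen.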

Additional observations from a re-analysis of the deposited data

How the results depend on the processing

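The share of Foxp3-high cells stayed within its interval without quality limits, at 50 or 100 reads and after thinning, and at 1 Foxp3 read it was 62.5% of P6+ and 34.1% of P6- cells. Counts of genes at least 2-fold higher and lower were 213 and 199 with 1 Foxp3 read and 3069 and 3515 with no gene filter beyond 1 read, where more genes were compared. Against the 3 P6- cells of the shared prefix 741 were higher. The same setting gave medians of 0.97 for Treg identity, 5.34 for suppressive and 6.27 for effector genes. With 1 Foxp3 read the suppressive median was 2.53 and the resting median -1.38, and without cells above 5% mitochondrial reads the latter was -1.45. Leaving out any 1 cell gave 299 to 352 genes higher and 335 to 378 lower, and medians of -0.21 to 0.12 for identity, 1.21 to 1.71 for suppressive, 0.05 to 0.64 for effector and -2.62 to -1.83 for resting genes. Scaling by TMM or size factors moved all ratios slightly and kept each of the 58 genes past 2-fold that were followed singly past 2-fold in the same direction. Of 58 genes past 2-fold that were followed singly, 46 kept 2-fold and direction without any 1 cell, and 11 turned in another setting: with 1 Foxp3 read Eif3g (0.025), Gm5835 (0.38), Nt5e (0.89), Gpi1 (-0.24) and Satb1 (-0.017); in the shared prefix Hacd3 (5.56), Cd69 (6.01), Gbp4 (0.28) and Satb1 (-0.29); and by medians of cells Nt5e (0.32), Cd69 (1.62), Itgb2 (0.22), Gbp4 (1.11), Foxp1 (4.77) and Foxo1 (1.5). With 1 Foxp3 read the groups include many Foxp3-low cells; otherwise the cause was not tested. With P6+ cells from 1 mouse, the spread between mice is unknown.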

Other observations

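Metabolic, interferon and T cell receptor complex genes had values beyond the lists above. Of 14 glycolysis genes 9 were compared, 8 had ratios above 0 and 2 were at least 2-fold higher in P6+ cells (Hk1, hexokinase 1, at 2.63, and 2.01 to 5.10 without any 1 cell, and Gpi1, glucose-6-phosphate isomerase, at 1.08, and 0.68 to 1.54 without any 1 cell), with a median of 0.54, and 6.4 against the 3 P6- cells of the shared prefix. Pkm, pyruvate kinase, was found in 11 of 11 and 13 of 19 cells at 1838 and 1085 cpm. Of 14 interferon response genes 6 were compared, 3 were higher and 1 lower. Ifi27l2a was found in all 11 P6+ cells (298 to 7850 cpm) and in 17 of 19 P6- cells (1.81 to 5494 cpm) with a ratio of 1.66, while Gbp4, a guanylate-binding protein, was at -1.03, short of 2-fold without any 1 of several cells. Of 11 T cell genes 3 were higher and 2 lower. Cd28, the main costimulatory receptor, was at 747 and 172 cpm (2.11, and 1.34 without P6+ replicate 21 or 2.92 without P6- replicate 96), Cd3d at 1.69 and Cd4 at 1.57 (2.6 without P6- replicate 31), while Lck, the kinase that begins receptor signals, was at -1.21 (-1.54 to -0.94 without any 1 cell) and Trbc1 at -8.05. In Foxp3-low cells Cd28 was at -0.32.

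Tnfsf8 (CD30 ligand), which was too rare to be compared, had 10 reads in 0 of 11 P6+ and 7 of 19 P6- Foxp3-high cells. A gene model that followed the tetramer sign as Slc34a2 did, Gm42826, had 10 reads in 17 of 19 P6- and 0 of 11 P6+ Foxp3-high cells. In Foxp3-low cells it had as many in 95 of 110 P6- and 0 of 21 P6+ cells, and in 7 of 8 P6- cells of the shared prefix. These genes were picked after their values were seen.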
